A study of Mus musculus with 16 samples.

Results

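The comparison described here is that of SZN-1326-p with anti-GFP within the epithelial cell types of the mouse colon, 24 h after 1 dose. Both arms held 3 mice, 6 of the 16 mice of the study. An epithelial type of the authors' annotation was taken up where at least 2 mice of each arm had 10 or more of its cells. By this rule 8 of 17 epithelial types were kept, with 2542 of the 3502 epithelial cells of these 6 mice. They are a transit-amplifying type (TA1), the 4 types AltEnteroPC, AltEnterocyte, AltEnterocyte2 and AltEnterocyte3, the 2 goblet types BasalGoblet and Goblet1, and the enteroendocrine type EnteroEnd1. In TA1, Goblet1 and EnteroEnd1 only 2 anti-GFP mice had enough cells.

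All 6 animals were 7-week-old C57Bl/6J female mice whose drinking water held 4% DSS (dextran sulfate sodium), which damages the lining of the colon, from the start to the end of the experiment. The agents were given on day 4 at 10 mg/kg. SZN-1326-p is an engineered antibody that joins Frizzled receptors to LRP co-receptors and so acts in place of a Wnt ligand, and an antibody to GFP, a protein that mice lack, was the control. The transverse colon was taken on day 5, still on DSS, and sorted cells were profiled by droplet single-cell RNA-seq with 1 library per mouse. Mice of the same study left uninjured, and those taken at 48 h, enter here for the spread between mice. They also count in the mean level by which genes within a type were kept for testing and for naming. The uninjured ones of both times serve further as a level to set values against.

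Wnt ligands bind a Frizzled receptor and an LRP co-receptor, which stabilises beta-catenin and switches on target genes with TCF factors. In the colon this signal maintains the stem cells at the crypt base and the division of their transit-amplifying daughters, which then differentiate into colonocytes, goblet, enteroendocrine and tuft cells. A change in the mean level of a gene over the whole epithelium can therefore come from a changed number of dividing cells, from a changed level within each type, or from both.

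The annotated names were checked against marker genes over the cells of the 6 mice. Muc2, the main gel-forming mucin, averaged 637 normalised UMIs per cell in BasalGoblet and 668.9 in Goblet1, against at most 4.61 in the other 6 types. Chgb, a granule protein of endocrine cells, averaged 383.5 in EnteroEnd1 and at most 0.562 in the others. Mki67, a marker of cycling cells, averaged 6.02 in TA1, 1.24 in AltEnteroPC and 1.09 in BasalGoblet. Top2a, another such marker, averaged 3.03, 0.515 and 0.795 in these types, so that AltEnteroPC was not set apart from BasalGoblet. Car1, a carbonic anhydrase of colonocytes, averaged 42.2 to 147.9 in the 4 Alt types. The colonocyte markers Car4 (0.974) and Aqp8 (0.0289) were lower in AltEnteroPC than in the other Alt types, but Guca2a (32.4) was above AltEnterocyte3 (19.9). TA1 also held stem cell markers. Lgr5 averaged 0.0643 in TA1 and at most 0.0300 in the other 7 types, Smoc2 averaged 0.338 and Slc12a2 9.90, where StemCell had 0.113, 0.616 and 12.8. Ascl2 (0.0243) and Axin2 (0.147) were also highest in TA1 among the kept types, but Mex3a was not, at 0.0212 against 0.143 in EnteroEnd1. Slc12a2 was also found in BasalGoblet (6.45) and Goblet1 (4.74). Tuft, a type not kept, had more Lgr5 than StemCell, at 0.796.

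The 6 libraries held 977 to 1838 cells and 9616512 to 15378570 UMIs each. In the whole series 129 cells shared a barcode sequence with a cell of another library. Cells annotated as TA1, TA2 or StemCell did not come evenly from the libraries. TA1 held 377, 28 and 14 cells of the 3 SZN-1326-p mice, against 118, 70 and 6 cells of the 3 anti-GFP mice, whereas TA2 held 28, 359 and 184 against 5, 2 and 82. The 6 libraries also differed in how their UMIs fell on long and on short transcripts. In AltEnteroPC the long transcripts lay above the short ones by 0.69, -0.25 and -0.42 log2 in the SZN-1326-p mice, against 0.75, 0.85 and -0.14 in the anti-GFP mice, so that 1 library of the SZN-1326-p arm and 2 of the anti-GFP arm stood apart. Since the 3 names follow the libraries, StemCell, TA1 and TA2 were also pooled as progenitors, a choice made after the counts had been seen. Values of this pool also hold the mix of the 3 names, which differed between mice. The median mitochondrial share of UMIs was lower with SZN-1326-p, without overlap, in AltEnteroPC, in this pool and, among mice with 10 or more cells, in TA1. In AltEnteroPC it was 32.3%, 30.5% and 32.1% against 33.8%, 37.3% and 32.6%. In the pool it was 37.0%, 35.4% and 37.7% against 43.5%, 43.4% and 38.5%. In the other kept types the arms overlapped, and its part in the results was not tested.

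The makeup of the epithelium differed most in the pooled progenitors. They made up 45.7% ± 5.41 of a mouse's epithelial cells in the SZN-1326-p arm and 26.6% ± 3.85 in the anti-GFP arm (SD, n = 3 each), 1066 and 323 cells in all. The arms did not overlap, at 40.4% to 51.2% against 22.5% to 30.0%. AltEnterocyte2 made up 4.87% ± 2.88 in the SZN-1326-p arm, against 13.6% ± 4.39 in the anti-GFP arm, and BasalGoblet 9.62% ± 1.20 and 13.6% ± 1.27. As a share of the 8 kept types alone, which leave out TA2 and StemCell, BasalGoblet did not differ in this way, at 15.96% ± 5.88 and 16.5% ± 3.13 (p = 1, exact permutation test), and AltEnterocyte2 had 8.61% ± 6.46 and 17.0% ± 7.77 (p = 0.2). Over all epithelial cells each of the 3 gave p = 0.1 (exact permutation test, two-sided), the smallest value that 3 against 3 mice allow. The other 6 kept types gave p = 0.3 to 1 in the same exact permutation test, among them TA1, with 17.6% ± 25.7 against 16.2% ± 13.0. The share of AltEnteroPC was 16.3% ± 2.77 in the SZN-1326-p arm, against 20.2% ± 6.29 in the anti-GFP arm. Without anti-GFP mouse 2 its difference was -0.237 percentage points in place of -3.85, and that of AltEnterocyte -0.687 in place of -3.62.

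**Figure D1:**
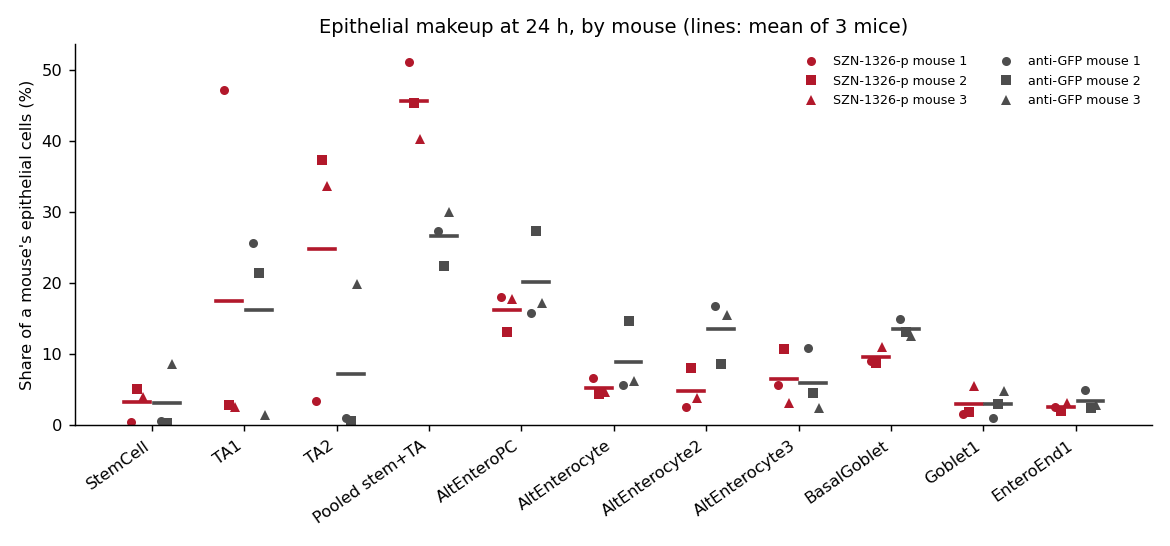
Share of each mouse's epithelial cells (%) in each kept type, and in StemCell, TA1, TA2 and their pool, with 1 point per mouse and a line at the mean of 3 mice; SZN-1326-p is red and anti-GFP grey. The pooled progenitors lie at 40.4% to 51.2% against 22.5% to 30.0%, while TA1 and TA2 alone split by mouse.

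Change within types was tested on log2 of the mean normalised UMIs per cell of a mouse plus 0.1, with limma over all genes of a type and Benjamini-Hochberg adjustment at 0.05. The numbers of genes past the test were small. They were 6 of 7716 in AltEnteroPC (0.0778% of genes tested) and 8 of 7228 in AltEnterocyte (0.111%), 2 in AltEnterocyte2 (0.0265%) and 4 in AltEnterocyte3 (0.0554%), 1 in Goblet1 (0.0133%) and 4 in EnteroEnd1 (0.0477%). By direction, 5 were higher (0.0648%) and 1 lower (0.013%) in AltEnteroPC, and 7 higher (0.0968%) and 1 lower (0.0138%) in AltEnterocyte. In EnteroEnd1 3 were higher (0.0358%) and 1 lower (0.0119%), all 6 in AltEnterocyte2 and AltEnterocyte3 were higher, and the 1 in Goblet1 was lower. TA1 and BasalGoblet had 0 (0%), with 89 and 286 genes at an unadjusted p under 0.05. Voom also called 0 in both, but 344 in AltEnteroPC, and 1 to 10 in the other kept types. Of 33 called results for named genes, 5 were kept without each mouse in turn, 4 were lost without each, and the other 24 were kept without some mice and lost without others. In AltEnteroPC 0 genes were called without SZN-1326-p mouse 2 or 3 or anti-GFP mouse 2 or 3, 2 without SZN-1326-p mouse 1 and 1 without anti-GFP mouse 1, and 0 after cells with markers of another lineage were left out.

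The largest log2 change among the called genes was that of Slc11a2, which encodes DMT1, the importer that carries ferrous iron across the apical membrane (chromosome 15, 100387898 to 100425072, minus strand, mm10). In AltEnterocyte2 it had 6.67, 5.44 and 3.30 normalised UMIs per cell in the SZN-1326-p mice, against 0.599, 0.275 and 0.134 in the anti-GFP mice. Every SZN-1326-p mouse thus lay above every anti-GFP mouse. The log2 change was 3.68 ± 0.37 (SE), with an adjusted p of 2.78e-06 by limma, and the call held without each mouse in turn. In AltEnterocyte3 Slc11a2 had 3.57, 4.14 and 6.18 with SZN-1326-p, against 0.399, 0 and 0 with anti-GFP, where mice 2 and 3 contributed 15 and 10 cells. The log2 change there was 4.75 ± 0.67 (adjusted p = 2.70e-07 by limma), a value that depends on the added 0.1 since 2 mice were at 0. With 0.01 added in its place the adjusted p was 0.599. In uninjured mice Slc11a2 averaged 0.164 in AltEnterocyte2 (n = 3) and 0.0776 in AltEnterocyte3 (n = 2), where the anti-GFP means were 0.336 and 0.133.

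Outside these 2 types Slc11a2 was low. In AltEnteroPC it had 0.721, 0.514 and 0.220 with SZN-1326-p, against 0.0956, 0.159 and 0.118 with anti-GFP, without overlap (log2 change 1.29 ± 0.34, adjusted p = 0.207 by limma). In AltEnterocyte the arms overlapped, at 0.952, 0.266 and 0.883 against 0.469, 0.0609 and 0.116. In BasalGoblet they overlapped as well, at 0.271 ± 0.125 in the SZN-1326-p arm, against 0.238 ± 0.116 in the anti-GFP arm (SD, n = 3 each). Of the 11 iron handling genes tested in AltEnterocyte2, Slc11a2 alone passed the test, and of the 10 in AltEnterocyte3 likewise. Slc40a1, the ferroportin that exports iron, had 5.43, 5.66 and 4.51 with SZN-1326-p, against 3.32, 4.13 and 3.77 with anti-GFP in AltEnterocyte2, without overlap (log2 change 0.46 ± 0.26, adjusted p = 0.669 by limma). The list's median log2 change was 0.10 in AltEnterocyte2 and 0.54 in AltEnterocyte3, where that of all genes was -0.03 and 0.13.

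**Figure D2:**
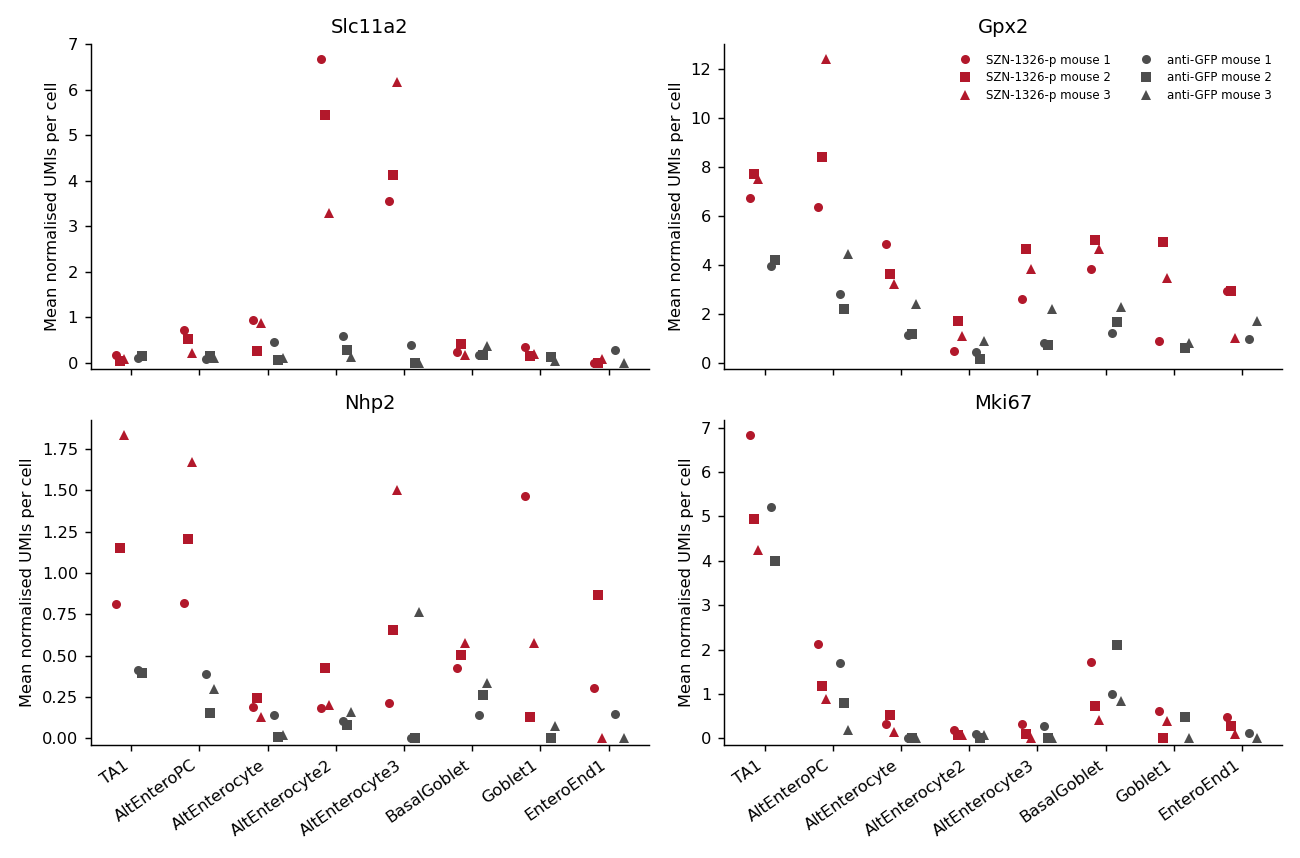
Mean normalised UMIs per cell (linear axes) of Slc11a2, Gpx2, Nhp2 and Mki67 in the 8 kept types, with 1 point per mouse; SZN-1326-p is red and stands left of anti-GFP, which is grey. Slc11a2 is at 3.30 to 6.67 in AltEnterocyte2 with SZN-1326-p and at most 0.599 with anti-GFP, while the arms overlap for Mki67 in TA1.

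Ribosome biogenesis genes, whose products process ribosomal RNA and assemble ribosomal subunits in the nucleolus, were higher in AltEnteroPC with SZN-1326-p. Of the 31 tested there, of 36 listed, 30 had a log2 change above 0, with a median of 0.73, where the median of all genes was -0.01. In 24 of the 31 every SZN-1326-p mouse lay above every anti-GFP mouse, against 9.55% of all genes tested in the type, and in 0 of 31 the reverse held. Nhp2, a subunit of H/ACA small nucleolar particles, passed the test. It had 0.821, 1.21 and 1.67 normalised UMIs per cell with SZN-1326-p, against 0.390, 0.157 and 0.300 with anti-GFP (log2 change 1.80 ± 0.29, adjusted p = 0.0211 by limma). Its adjusted p was 0.0652 to 0.134 without SZN-1326-p mouse 2 or 3 or anti-GFP mouse 2 or 3. Its change was above 0 in all 8 types, at 0.74 to 2.23, without overlap in 5. The other 30 genes of the list missed the test. Among them Nop56, a core protein of C/D small nucleolar particles, had 1.47, 0.916 and 1.40 against 0.516, 0.344 and 0.269 (log2 change 1.52 ± 0.32, adjusted p = 0.0933). Gar1, which sits beside Nhp2 in the H/ACA particles, had 0.373, 0.434 and 0.517 against 0.136, 0.143 and 0.138 (1.17 ± 0.27, adjusted p = 0.131). Neither gene overlapped between the arms.

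In the other types most genes of the list also lay above 0, among them 13 of 13 in AltEnterocyte, 16 of 18 in AltEnterocyte2 and 34 of 36 in the pooled progenitors. The median log2 change was 0.53 in AltEnterocyte (13 tested), 0.51 in AltEnterocyte2 (18 tested) and 0.75 in AltEnterocyte3 (24 tested), with 4 genes in each whose SZN-1326-p mice all lay higher. The background for this was 6.64%, 5.70% and 8.35% of genes. Npm1, a nucleolar chaperone, passed the test in AltEnterocyte3, with 2.09, 3.29 and 2.72 normalised UMIs per cell against 1.30, 0.269 and 0.103 (log2 change 2.55 ± 0.50, adjusted p = 0.00319 by limma), a call lost without SZN-1326-p mouse 2 or 3. It was also lost with 0.01 added (adjusted p = 0.775 by limma) and with voom (0.264). With at least 20 cells, which left anti-GFP mouse 1 alone in its arm, the log2 change of Npm1 was 0.96. In BasalGoblet the median was 0.19, and 6 of 32 lay apart and higher, against 4.90% of genes. In TA1 it was 0.12, with 5 of 35 (9.70% of genes), and in the pooled progenitors 0.52, with 17 of 36 (8.58%).

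**Figure D3:**
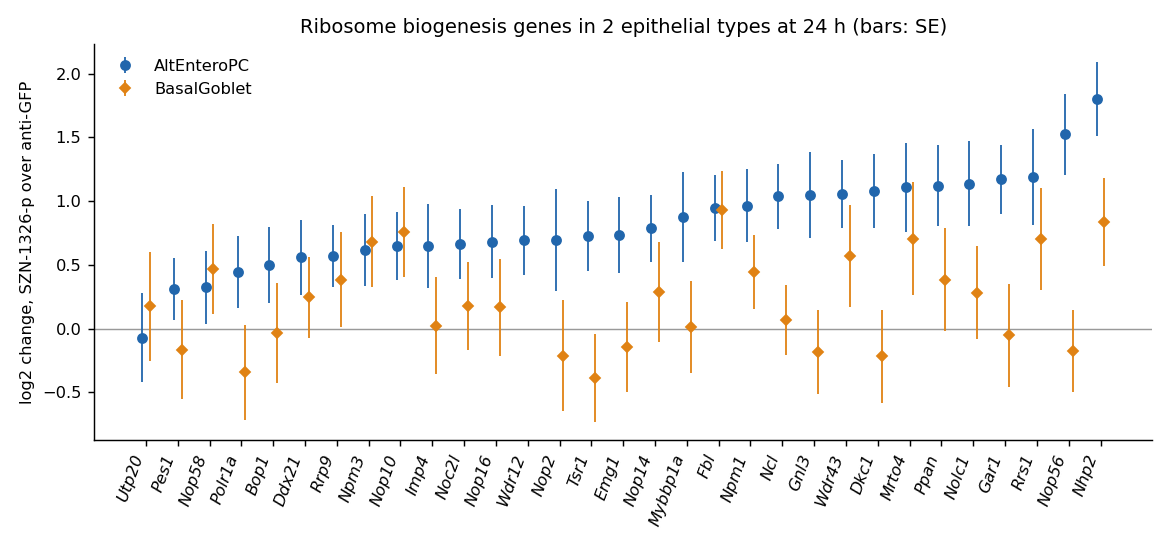
Log2 change (SZN-1326-p over anti-GFP) with its SE of the ribosome biogenesis genes tested in AltEnteroPC (blue circles), with BasalGoblet beside it (orange diamonds) where the gene was tested. In AltEnteroPC 30 of 31 lie above 0; in BasalGoblet both signs occur.

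Whether these changes differed between types was tested as a difference of changes within mice. AltEnteroPC minus BasalGoblet gave 0 of 6993 genes past the test (236 at an unadjusted p under 0.05). The pooled progenitors minus BasalGoblet gave 0 of 7149 (285 at an unadjusted p under 0.05). For Nop56 the first difference was 1.70 ± 0.47 log2 (adjusted p = 0.998 by limma), for Nhp2 0.96 ± 0.37 and for Gpx2 0.13 ± 0.36. No gene was thus shown to change differently in these types.

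Several of these genes carry in their promoter the E-box CACGTG, a palindrome that MYC with its partner MAX binds, and 4 such windows are shown. They were picked for the largest log2 changes in AltEnteroPC among genes of the list with the motif in a usable part of the window. The size of their changes thus follows from the choice. Letters were searched in the RefSeq promoter windows, from 250 bases before to 50 after a gene's start, on GRCm38.p6. CACGTG, which reads the same on both strands, was found in 8 of the 31 ribosome biogenesis genes with a window (25.8%) and in 8.09% of 27025 genes. It was found in 3 of 33 genes of DNA replication (9.09%) and in 6 of 32 colonocyte genes (18.8%). The TCF core CTTTGA or its reverse complement TCAAAG was found in 3 of the 31 (9.68%) and in 18.2% of all genes, and in 3 of 13 Wnt target genes with a window (23.1%). The matches are a description of letters, not of bound sites. Capitals mark CACGTG in stretches of these windows, all on the plus strand. In AltEnteroPC the genes had log2 changes of 1.06 ± 0.27 (Wdr43), 0.72 ± 0.28 (Tsr1), 0.70 ± 0.40 (Nop2) and 0.65 ± 0.33 (Imp4), none past the test; the arms overlapped for Imp4 and not for the other 3.
Wdr43, chr17:71616172-71616244: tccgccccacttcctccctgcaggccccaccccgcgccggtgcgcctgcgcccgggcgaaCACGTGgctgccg
Tsr1, chr11:74898044-74898109: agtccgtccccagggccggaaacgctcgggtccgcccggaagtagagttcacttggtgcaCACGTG
Nop2, chr6:125131763-125131888: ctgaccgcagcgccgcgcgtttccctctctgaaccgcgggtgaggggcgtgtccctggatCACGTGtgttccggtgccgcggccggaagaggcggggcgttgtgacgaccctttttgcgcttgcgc
Imp4, chr1:34439648-34439773: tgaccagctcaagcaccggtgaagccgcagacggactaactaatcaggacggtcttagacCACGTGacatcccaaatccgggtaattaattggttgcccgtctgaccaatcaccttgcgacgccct

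Other genes passed the test in AltEnteroPC. Ran, the small GTPase of nuclear transport, had 2.18, 2.66 and 4.34 normalised UMIs per cell with SZN-1326-p, against 1.23, 1.02 and 1.25 with anti-GFP (log2 change 1.26 ± 0.24, adjusted p = 0.0473 by limma). Wfdc18, a small secreted protein with a whey acidic core, had 2.35, 1.60 and 1.24 against 0.247, 0.268 and 0.236 (2.34 ± 0.41, adjusted p = 0.0312). Tgfbr2, a receptor of TGF-beta, had 1.08, 1.07 and 0.920 against 0.411, 0.343 and 0.188 (1.48 ± 0.27, adjusted p = 0.0388). In each of the 3 genes the arms did not overlap, but the calls of Wfdc18 and Tgfbr2 were lost without each of the 6 mice in turn, and that of Ran without each but SZN-1326-p mouse 1. Tgfbr2 also rose in AltEnterocyte2, to 1.10, 0.697 and 0.999 against 0.171, 0.0470 and 0.151 (2.24 ± 0.37, adjusted p = 0.0110), a call lost without SZN-1326-p mouse 3 or anti-GFP mouse 2. In Goblet1 it was lower in each SZN-1326-p mouse, at 0.738 ± 0.165 (n = 3) against 1.16 ± 0.0864 (n = 2), which did not pass the test. Gdf15, a stress-induced cytokine, rose to 0.611, 0.542 and 0.563 against 0.152, 0.164 and 0.0524, and Kctd12 fell to 0.174, 0.163 and 0.119 against 0.685, 0.511 and 0.397 in AltEnteroPC. Both lie below the level set for naming and were chosen after their values were seen. The calls of Gdf15 and Kctd12 (adjusted p = 0.0211 and 0.0474 by limma) were lost without each of the 6 mice in turn. The adjusted p was then 0.0629 to 0.134 for Gdf15 and 0.0962 to 0.417 for Kctd12 (limma).

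Wnt target and feedback genes gave no call in any of the 8 types. In AltEnteroPC 7 of the 8 tested lay above 0, with a median log2 change of 0.69, and 4 of the 8 did not overlap, all higher, where 9.55% of genes did so. They are Rnf43, an E3 ligase that removes Frizzled receptors, Myc, Cdca7 and Sox9. Rnf43 had 0.393, 0.326 and 0.382 normalised UMIs per cell with SZN-1326-p, against 0.104, 0.0815 and 0.117 with anti-GFP (log2 change 1.22 ± 0.28, adjusted p = 0.131 by limma). Its change was above 0 in all 8 types, at 0.22 to 1.62, and its arms did not overlap in 3 of them. Axin2, a feedback scaffold of the pathway, was too low to test in 5 types. In the pooled progenitors it had 0.176, 0.175 and 0.146 against 0.0912, 0.0599 and 0.00667, which did not overlap (0.84 ± 0.25, adjusted p = 0.105), and in uninjured mice 0.430 (n = 4). In BasalGoblet the list's median was 0.01.

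Fzd5, a Frizzled receptor, was lower with SZN-1326-p in 6 of the 7 types in which it was tested, and without overlap in 4. In AltEnteroPC it had 1.14, 1.02 and 0.862 normalised UMIs per cell, against 2.29, 1.92 and 1.82 with anti-GFP (log2 change -0.93 ± 0.25, adjusted p = 0.207 by limma). In the pooled progenitors it had 0.915, 0.868 and 0.751 against 1.64, 1.50 and 1.26 (-0.73 ± 0.19, adjusted p = 0.0777). No receptor or co-receptor of the list passed the test in any type.

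Gpx2, the glutathione peroxidase of the gut epithelium, showed the same direction in every type. Its log2 change was above 0 in all 8 types, at 0.66 to 1.72, and the arms did not overlap in 6. In BasalGoblet it had 3.81, 5.00 and 4.65 normalised UMIs per cell with SZN-1326-p, against 1.23, 1.65 and 2.26 with anti-GFP (log2 change 1.37 ± 0.27, adjusted p = 0.179 by limma). In AltEnteroPC it had 6.34, 8.39 and 12.4 against 2.80, 2.20 and 4.43 (1.50 ± 0.38, adjusted p = 0.195). It passed the test in none of the 8 types taken alone. The 25 glutathione and redox genes tested in AltEnteroPC had a median of 0.05, and 1 was apart and higher. In BasalGoblet 19 of 23 lay above 0 (median 0.35), 5 of them apart and higher against 4.90% of genes, and in TA1 6 of 23 were apart and higher and 5 apart and lower (9.70% and 12.8% of genes).

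**Figure D4:**
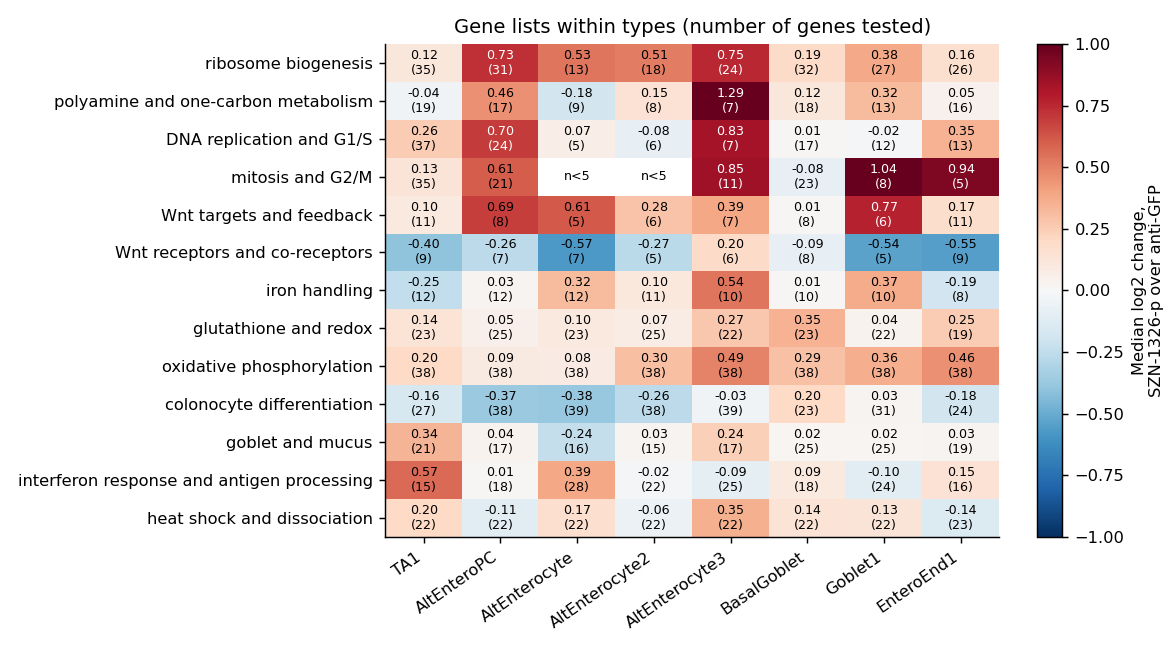
Median log2 change (SZN-1326-p over anti-GFP) of 13 gene lists in each kept type, with the number of genes tested in parentheses; fields with fewer than 5 genes are marked and left uncoloured, and colours end at -1 and 1. Ribosome biogenesis is above 0 in all 8 types, from 0.12 in TA1 to 0.75 in AltEnterocyte3, and DNA replication is at 0.70 in AltEnteroPC and 0.01 in BasalGoblet.

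Cell division genes gave no call in any of the 8 types, and no difference of their changes between AltEnteroPC and BasalGoblet passed the test. In AltEnteroPC all 24 DNA replication genes tested lay above 0 (median 0.70), 13 of them without overlap, and 20 of 21 mitosis genes did (median 0.61), 6 without overlap, where 9.55% of all genes were apart and higher. In BasalGoblet the medians were 0.01 and -0.08. In TA1 Mki67 had 6.84, 4.95 and 4.24 normalised UMIs per cell with SZN-1326-p, against 5.22 and 3.98 with anti-GFP, which overlap. In the pooled progenitors it had 6.69, 3.40 and 2.89 against 5.22, 4.06 and 2.37 (log2 change 0.13 ± 0.32). Cdca8, a subunit of the chromosomal passenger complex, passed the test there, with 0.860, 1.07 and 0.996 against 0.467, 0.409 and 0.467 (0.97 ± 0.19, adjusted p = 0.0325 by limma). It was 1 of 13 genes called in the pooled progenitors (0.161% of 8052), 5 higher (0.0621%) and 8 lower (0.0994%). That count was 0 without SZN-1326-p mouse 2 or 3 or anti-GFP mouse 1, 4 without anti-GFP mouse 2, 882 without SZN-1326-p mouse 1 and 522 without anti-GFP mouse 3.

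Colonocyte differentiation genes were lower in part. In AltEnteroPC 29 of 38 lay below 0 (median -0.37), 6 without overlap, against 9.31% of genes. In AltEnterocyte 27 of 39 did (median -0.38), 10 without overlap, against 7.19%. Guca2a, the precursor of the gut peptide guanylin, had 13.6, 30.0 and 19.4 normalised UMIs per cell in AltEnteroPC with SZN-1326-p, against 42.4, 64.9 and 41.2 with anti-GFP (log2 change -1.28 ± 0.31, adjusted p = 0.175 by limma). In AltEnterocyte it had 43.5, 63.6 and 53.9 against 84.3, 141.9 and 138.9 (-1.16 ± 0.27, adjusted p = 0.107). Plac8 passed the test in AltEnterocyte, with 17.2, 20.2 and 25.6 against 40.1, 46.0 and 55.8 (-1.17 ± 0.24, adjusted p = 0.0237), a call lost without SZN-1326-p mouse 1 or 2 or anti-GFP mouse 2 or 3. In all 3 comparisons the arms did not overlap. In AltEnterocyte3 the list's median was -0.03, and in BasalGoblet 0.20.

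AltEnterocyte also gave 7 higher genes, of which 2 encode ribosomal proteins. Ifit2, an interferon-induced protein, had 1.71, 1.23 and 1.21 normalised UMIs per cell with SZN-1326-p, against 0.347, 0.0941 and 0.203 with anti-GFP (log2 change 2.30 ± 0.37 by limma), a call lost without anti-GFP mouse 2 (adjusted p = 0.0581). It was 1 of 28 interferon and antigen processing genes tested, with a median of 0.39 (all genes -0.03) and 5 apart and higher, against 6.64% of genes. In TA1 the list's median was 0.57, with 8 of 15 apart and higher against 9.70% of genes. In AltEnteroPC, AltEnterocyte2 and AltEnterocyte3 0 were apart and higher. Mt1, a metallothionein that binds zinc and copper, had 4.58, 6.52 and 11.6 against 2.67, 2.29 and 2.16 (1.53 ± 0.32, adjusted p = 0.0410), a call lost without each mouse but SZN-1326-p mouse 1. Cyp2d12 and Cyp2d26, cytochrome P450 genes, and Eno3, a muscle enolase, also rose. The 2 Cyp2d genes are members of 1 family, so that reads may be split between them, and their calls held without each mouse in turn. That of Eno3 was lost without SZN-1326-p mouse 2 or 3 or anti-GFP mouse 1 or 2. The depth of AltEnterocyte cells differed between the arms without overlap, at a median of 8109, 4829 and 11434 UMIs per cell with SZN-1326-p, against 18447.5, 19013 and 21137.5 with anti-GFP. Cells were thinned to 3000 UMIs, and those with fewer were left out. These were 2 of 53, 12 of 43 and 0 of 26 cells with SZN-1326-p, against 3 of 26, 1 of 48 and 0 of 26 with anti-GFP. After this thinning 5 genes were called, 3 of them among the 8, Plac8 (adjusted p = 0.00181 by limma) and Mt1 (adjusted p = 0.00295) included. The ribosomal protein genes among the 8 were not followed by name, and the other 4 named genes missed the threshold. Their log2 changes after thinning were 2.90 for Ifit2 (adjusted p = 0.167), 1.25 for Eno3 (0.554), 2.23 for Cyp2d12 (0.490) and 3.48 for Cyp2d26 (0.0695), against 2.30, 1.89, 2.84 and 2.99 before.

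In the secretory types few genes passed. Retnlb, a goblet cell protein that acts on the gut microbiota, fell in Goblet1 to 2.83, 4.76 and 9.20 normalised UMIs per cell, against 25.3 and 64.2 in the 2 anti-GFP mice with enough cells (log2 change -2.99 ± 0.50, adjusted p = 0.000580 by limma). Its level in uninjured mice was 7.00 (n = 3), and in BasalGoblet the arms overlapped, at 6.56, 14.8 and 24.9 against 8.33, 8.12 and 15.5. The Goblet1 call was lost with 0.01 added (adjusted p = 0.882 by limma), with no filter (0.948) and with the replicate number as a block (0.536). Anti-GFP mouse 2 gave 10 Goblet1 cells, 50% of them with 2 or more markers of another lineage. Anti-GFP mouse 1 was not in this fit, although the call counts as kept without each mouse. Muc2 itself had 557.5, 710.3 and 620.1 in BasalGoblet with SZN-1326-p, against 636.1, 522.9 and 742.6 with anti-GFP, which overlap fully. In EnteroEnd1 the guidance cue Sema3c, the glycosyltransferase B3galt5 and 1 ribosomal protein gene rose. Sema3c had 2.05, 1.63 and 0.737 against 0.210 and 0.161 (2.36 ± 0.53, adjusted p = 0.0286). Hmgcs1, an enzyme of cholesterol synthesis, fell to 1.37, 0.589 and 1.79 against 7.50 and 3.75 (-2.12 ± 0.48, adjusted p = 0.0286). The call of B3galt5 was lost without each SZN-1326-p mouse and without anti-GFP mouse 1. The call of Sema3c was lost without SZN-1326-p mouse 1 or 2 or anti-GFP mouse 3, and that of Hmgcs1 without SZN-1326-p mouse 2 or anti-GFP mouse 1. In AltEnterocyte3 the amino acid transporter Slc38a1 rose to 4.44, 2.67 and 4.38, against 1.20, 0.198 and 0.204 (2.97 ± 0.58, adjusted p = 0.00319), and so did Dctn3, a dynactin subunit. The call of Slc38a1 was lost without each SZN-1326-p mouse, and that of Dctn3 without each mouse but anti-GFP mouse 3. With at least 20 cells, which left anti-GFP mouse 1 alone in its arm, the log2 change of Dctn3 was 0.97, against 3.00 with 10. That of Slc38a1 was then 1.45, against 2.97. With 0.01 added the adjusted p of each was 0.775 (limma).

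Makeup and change within types were then set apart. Over the 5 types with enough cells in all 6 mice, each mouse's pooled mean called 1 of 7996 genes (0.0125%), Slc11a2, and the mean at fixed type shares called 1 of 7979 (0.0125%), again Slc11a2. Its log2 change was 2.37 ± 0.29 with each mouse's own makeup and 2.66 ± 0.21 at fixed makeup (adjusted p = 0.0332 and 0.000506 by limma). These 5 types leave out the progenitors, whose share differed most. With the pooled progenitors added as the sixth group, the own makeup called 98 of 8145 genes (1.20%), 68 higher (0.835%) and 30 lower (0.368%), whereas fixed makeup called 1 of 8151 (0.0123%), Slc11a2, with 1046 genes at an unadjusted p under 0.05. The own-makeup count was 0 without SZN-1326-p mouse 2 or 3 or anti-GFP mouse 1 or 2, 613 without SZN-1326-p mouse 1 and 830 without anti-GFP mouse 3, whereas the fixed-makeup count stayed at 1 without each mouse. The pooled progenitors entered as 1 group with a weight of 40.9%. The mix of StemCell, TA1 and TA2 within them was therefore not fixed.

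The medians of the gene lists moved in both directions when the makeup was fixed. Ribosome biogenesis genes had a median log2 change of 0.71 with the own makeup and 0.52 at fixed makeup (35 genes). DNA replication genes had 0.79 and 0.43 (32 genes), and mitosis genes 0.69 and 0.34 (30 genes). Colonocyte differentiation genes had -0.81 and -0.21 (38 genes), and goblet genes -0.26 and 0.05 (24 genes). The medians of other lists lay farther from 0 at fixed makeup. Oxidative phosphorylation genes had 0.08 with the own makeup and 0.22 at fixed makeup (38 genes, 8 of them closer to 0), and Wnt receptors and co-receptors -0.08 and -0.22 (7 genes). Of the 97 genes called with the own makeup and tested in both, 95 were closer to 0 at fixed makeup, a selection by the own-makeup values that favours this direction. With the own makeup 31 of 35 ribosome biogenesis genes did not overlap and were higher, against 11.3% of genes, and at fixed makeup 20 of 35 against 8.43%. For colonocyte genes it was 18 of 38 lower against 16.3%, and 7 of 38 against 8.94%.

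**Figure D5:**
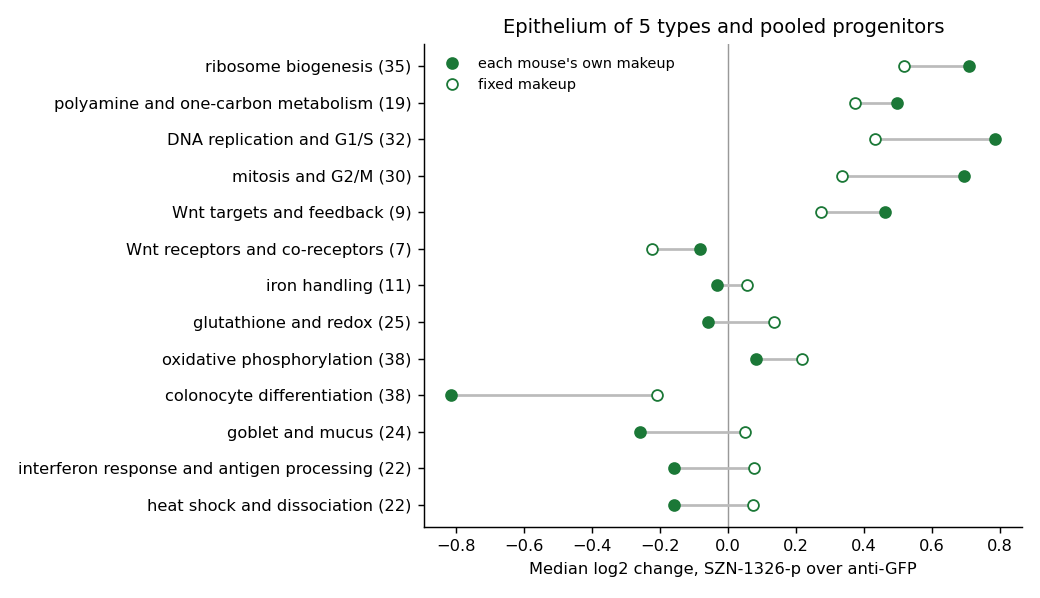
Median log2 change (SZN-1326-p over anti-GFP) of 13 gene lists over the epithelium of 5 types and pooled progenitors, with each mouse's own makeup (filled) and at fixed makeup (open); the number of genes is in parentheses. Colonocyte differentiation lies at -0.81 and -0.21, ribosome biogenesis at 0.71 and 0.52.

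For single genes a difference between the arms was built from each arm's mean shares and mean levels within types, over the same 6 groups. It was split exactly into a part from the shares and a part from the levels. This difference need not equal that of the pooled means of the mice, which are printed beside it. The split is a description with no test. A changed mix of StemCell, TA1 and TA2 inside the pooled progenitors counts in it as change within types. Car1 averaged 23.6 ± 12.5 normalised UMIs per cell in the SZN-1326-p arm, against 40.2 ± 12.0 in the anti-GFP arm. Of its difference built from arm means, 99.7% was makeup. For Muc2 it was 100.4%. For Mki67, at 2.67 ± 1.42 against 1.55 ± 0.525, 74.1% was makeup, and at fixed makeup its log2 change was 0.16 ± 0.37. Krt20, a keratin of surface colonocytes, came to 48.7% and Guca2a to 38.6%. For Nhp2 makeup was 18.1%, for Gpx2 19.9% and for Bmp3, a BMP ligand that was lower with SZN-1326-p, 18.2%. For Slc11a2 the makeup part ran against the difference, at -39.4%. Of the 2 types with the highest level, AltEnterocyte2 was the smaller share with SZN-1326-p, and AltEnterocyte3 had 6.49% ± 3.87 with SZN-1326-p and 5.98% ± 4.40 of the epithelium with anti-GFP (p = 0.8, exact permutation test). Over the 8 kept types, which leave out TA2 and StemCell, the makeup part was 95.2% for Car1, 160.3% for Muc2 and 40.1% for Mki67. It was 21.7% for Krt20, 16.9% for Guca2a, 8.04% for Nhp2, 8.65% for Gpx2, 18.6% for Bmp3 and -12.6% for Slc11a2. For Muc2 the total itself changed sign between the 2 splits, at 3.82 over the 8 types and -26.8 over the 6 groups.

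Markers of other cell lineages were found in these types. In AltEnteroPC the arms overlapped for all 6 lineages. The summed level of 16 myeloid markers was 0.767 to 2.82 with SZN-1326-p and 0.681 to 5.72 with anti-GFP, that of 12 fibroblast markers 0.208 to 1.04 and 0.318 to 1.35, and that of 13 T cell markers, 5 of them at 0 in all 6 mice, 0 to 0.0469 and 0.0315 to 0.0663. Cells with 2 or more markers of another lineage were 7.64%, 16.7% and 24.7% of AltEnteroPC cells with SZN-1326-p, against 9.59%, 23.6% and 26.8% with anti-GFP. Without these cells the log2 change of Nhp2 in AltEnteroPC was 1.84, with an adjusted p of 0.0799 by limma. Elsewhere single mice stood higher. The fibroblast sum reached 7.23 in TA1 with SZN-1326-p, against at most 0.608 with anti-GFP, and 3.30 in BasalGoblet against 1.26. In AltEnterocyte2 the myeloid sum reached 4.51 in the SZN-1326-p arm, against 8.27 in the anti-GFP arm. The sum of 10 endothelial and mural markers did not overlap in AltEnterocyte3, at 0 to 0.170 against 0.204 to 1.02, nor in Goblet1, at 0 against 0.103 to 0.628. In the pooled progenitors that of 7 B and plasma cell markers did not, at 0.00725 to 0.0576 against 0.0618 to 0.102. Without cells holding 2 or more such markers Slc11a2 was still called in AltEnterocyte2 and AltEnterocyte3. Among the calls lost were those of Mt1 in AltEnterocyte (log2 change 1.01, adjusted p = 0.217 by limma) and Tgfbr2 in AltEnterocyte2 (2.13, adjusted p = 0.133). Those of Kctd12 in AltEnteroPC (-0.90, adjusted p = 0.334) and B3galt5 in EnteroEnd1 (2.45, adjusted p = 0.188) were lost too. For the gene lists and the split by makeup the part of these markers was not tested.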

How the data were processed

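Sorted cells of the transverse colon of 16 mice were measured by droplet single-cell RNA-seq (10x, version 3). Per the submitters' processing notes, Cell Ranger 3.0.2 and the mm10 genome were used; size factors, cell filters and treatment of doublets are not given in the sources used here. The authors deposited log2 values, normalised UMIs per cell plus 1; once un-logged, 100% of the 60867816 entries above 0 were whole multiples of the cell's smallest value (tolerance 1e-06). Mouse, arm, tissue layer and cell type come from other columns, text labels the authors deposited; SWAP there was taken as SZN-1326-p.

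Un-logged values were averaged per mouse and type (10 or more cells), and log2 of the mean plus 0.1 was tested with limma 3.58.1 in R 4.3.3, for genes with a mean of 0.1 or more, with every group of the type in 1 fit (for makeup, the 6 mice alone), adjusted over all genes tested. The tests planned for counts were replaced, since the deposited unit is log2. Each mouse is 1 replicate. Own makeup is the mean over all cells of a mouse in the types named. Fixed makeup weights type means by shares common to all 6 mice, with the pooled progenitors as 1 type. Scripts were tested on simulated data, with Python 3.11.15 for tables. Members, lists, panel genes and alternatives were chosen with earlier results of these data known. Named genes are a set panel, and in each type the called genes with a mean of at least 0.5 and no overlap; ribosomal protein genes were counted only. A planned contrast of single progenitor types with goblet cells had no type with enough cells in all 6 mice and was replaced.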

Additional observations from a re-analysis of the deposited data

How the results depend on the processing

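Counts of called genes depended on most settings, and the cause was not tested. In fits of the 24 h groups alone, the called genes numbered 19 in AltEnterocyte, 2 in Goblet1, 1 in EnteroEnd1 and 0 in pooled progenitors. With at least 20 cells per mouse and type, the called genes numbered 30 in AltEnterocyte, 4 in AltEnterocyte2, 0 in EnteroEnd1, 18 in own makeup of 5 types, 12 in fixed makeup of 5 types, 56 in own makeup of 6 groups and 17 in fixed makeup of 6 groups. With a term for the libraries rich in long transcripts, the called genes numbered 15 in AltEnteroPC, 7 in AltEnterocyte2, 14 in AltEnterocyte3, 1 in BasalGoblet, 11 in EnteroEnd1, 130 in own makeup of 5 types, 144 in fixed makeup of 5 types, 147 in pooled progenitors, 1573 in own makeup of 6 groups, 404 in fixed makeup of 6 groups and 1 in the difference of AltEnteroPC from BasalGoblet. With median-of-ratios scaling, the called genes numbered 4 in AltEnterocyte2 and 254 in own makeup of 6 groups. With no filter on low levels, the called genes numbered 0 in AltEnteroPC, 3 in AltEnterocyte, 1 in AltEnterocyte2, 0 in AltEnterocyte3, 0 in Goblet1, 0 in EnteroEnd1, 0 in own makeup of 5 types, 0 in pooled progenitors and 0 in own makeup of 6 groups. With 0.01 added before the logarithm, the called genes numbered 2 in AltEnteroPC, 2 in AltEnterocyte, 1 in AltEnterocyte2, 0 in AltEnterocyte3, 0 in Goblet1, 0 in EnteroEnd1 and 20 in own makeup of 6 groups. With the replicate number as a block (replicate block), the called genes numbered 8 in AltEnterocyte2, 1 in BasalGoblet, 0 in Goblet1, 16 in EnteroEnd1, 77 in own makeup of 5 types, 49 in fixed makeup of 5 types, 705 in pooled progenitors, 1390 in own makeup of 6 groups and 7 in fixed makeup of 6 groups. With voom, the called genes numbered 344 in AltEnteroPC, 9 in AltEnterocyte2, 4 in Goblet1, 1 in EnteroEnd1, 7 in own makeup of 5 types, 167 in pooled progenitors and 849 in own makeup of 6 groups. Without cells holding markers of another lineage, the called genes numbered 0 in AltEnteroPC, 17 in AltEnterocyte, 1 in AltEnterocyte2, 37 in AltEnterocyte3, 3 in Goblet1, 86 in own makeup of 5 types, 23 in fixed makeup of 5 types, 770 in own makeup of 6 groups and 4 in fixed makeup of 6 groups. Leaving out each mouse in turn gave 0 to 1 in TA1, 0 to 2 in AltEnteroPC, 2 to 8 in AltEnterocyte, 1 to 8 in AltEnterocyte2, 1 to 41 in AltEnterocyte3, 0 to 1 in BasalGoblet, 1 to 27 in Goblet1, 0 to 22 in EnteroEnd1, 0 to 40 in own makeup of 5 types, 1 to 17 in fixed makeup of 5 types, 0 to 882 in pooled progenitors and 0 to 830 in own makeup of 6 groups. The difference in share (percentage points, SZN-1326-p minus anti-GFP) then ranged from -13.5 to 8.82 for TA1, from -1.6 to 2.97 for AltEnterocyte3 and from -1.25 to 0.918 for Goblet1. As a share of the 8 kept types alone, the difference was -0.501 for BasalGoblet (-4.00 over all epithelial cells), 2.16 for AltEnteroPC, 1.32 for Goblet1 and 0.15 for EnteroEnd1. AltEnterocyte thinned to 3000 UMIs gave 5. Mice with the same number were not shown to pair: their deviations correlated at r = 0.53, -0.38 and 0.58 with the own makeup of 6 groups. Slc11a2 in AltEnterocyte2 was called in all 15 alternatives run for it, at log2 changes of 3.30 to 4.47. Of the 33 called results for named genes, all 500 alternatives had the same direction and 288 were still called. The direction was in large part fixed in advance. The arms of these genes do not overlap, so that leaving out a mouse cannot reverse it. Fits with no filter or of the 24 h groups alone leave the log2 change as it was. The thinning and the 6 groups were chosen after seeing the data. Goblet1 with at least 20 cells could not be run, and voom was not run for fixed makeup or for differences of changes. With 3 mice per arm and as few as 10 cells behind a mean, a missed threshold does not show equal levels.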
